A study of Mus musculus with 32 samples.

Results

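Control Kupffer cells were compared with control Ito cells, using 8 of the 32 samples of the series: the 4 samples titled KC and the 4 titled IC, chosen by their titles alone. Cell types are named below by these titles, whatever their markers showed. Each sample is a preparation of liver cells from Balb/c male mice, 6 to 8 weeks old, labelled as control and so without tumor: control mice received PBS in the spleen, and the liver cells were isolated 14 days later. The other liver samples used below are the control endothelial cells (EC) and the TME samples, that is Kupffer (KT) and Ito (IT) cells from livers in which C26 colon carcinoma cells, injected the same way, had formed metastases. The liver was perfused with collagenase, Ito cells were taken from a Percoll gradient, and Kupffer cells were the cells of the gradient fractions that adhered, so the separation rested on density and adherence, and the cells had been in culture medium for up to 24 h. The study checked its fractions by immunochemistry for CD146 (endothelial), CD68 (Kupffer) and ASMA (Ito) and reports high purity for all. That check read protein, whereas the markers below are RNA. The study calls the samples of a group biological replicates. Whether each came from its own animal, pool or culture is not given, and p-values measure only the spread between samples. In the limma fit used below, that spread was estimated per probe from all 32 samples in 8 groups, tumor groups included.

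Kupffer cells are the resident macrophages of the liver sinusoid. They take up bacteria, damaged red cells and iron from portal blood, carry the C-type lectin Clec4f, and secrete Cd5l, a scavenger-like protein. Ito cells, also called hepatic stellate cells, lie between the sinusoidal endothelium and the hepatocytes, store vitamin A as retinyl esters made by Lrat, and turn into matrix-producing, contractile cells when the liver is injured. Hepatocytes make albumin (Alb) and most plasma proteins and are not wanted in either preparation.

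The RNA of all 8 samples carried the same dye (Cy3) on dual-dye arrays of 55681 distinct probes, and each array also carried the TME sample of the same cell type and number in the other dye. All 4 Ito arrays were on 1 slide, together with the endothelial arrays, and all 4 Kupffer arrays on the other slide, so slide and cell type cannot be told apart. Between 51.0% and 53.4% of spots were well above background in 7 of the samples and 44.6% in KC replicate 3. Agreement between samples was uneven. Over 20050 probes well above background in all liver samples, Ito replicates 1 to 3 correlated with each other at 0.991 to 0.995. They differed pairwise by a median absolute deviation of 0.14 to 0.15 on the log2 scale. Replicate spots within single arrays, which measure spot noise only, gave 0.11 in Ito replicates 1 to 3 and 0.13 in KC replicate 3. The library labelled IC replicate 4 differed from Ito replicates 1 to 3 by 0.62 to 0.67. It was nearest to the library labelled IT replicate 1 (r = 0.996). With its own group, Ito replicates 1 to 3, it correlated at 0.961, and with IT replicates 1 to 3 at 0.965 (0.905 to 0.996). KC replicates 1 and 2 differed by 0.15, whereas KC replicate 3 differed from the other 3 by 0.71 to 0.83 and the library labelled KC replicate 4 differed from KC replicates 1 and 2 by 0.43 and 0.49. The latter correlated at 0.969 with KC replicates 1 to 3 and at 0.996 with KT replicates 1 to 3. Whether control and TME samples were exchanged in replicate 4 was not tested, and 2 of the 8 values given per gene may come from tumor-bearing mice. The labels were kept, and a count of called genes that changed without replicate 4 of both groups is given with its value without them.

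What an array reads of a gene is set by its probe, a DNA strand of 60 bases. The probes of 6 genes on which the comparison turns are shown so that the measured stretch of each mRNA is plain: a Kupffer marker, 2 innate immune genes that were higher in Kupffer cells (the inflammasome adaptor Pycard and the complement subunit C1qb), and 3 genes that were lower (Alb, the keratin Krt8 and the heat shock protein Hspa1a). Positions are those of the array files (mm9). They are given with the strand for Clec4f at chr6:83595281-83595339 (-), Pycard at chr7:135136241-135136300 (-), C1qb at chr4:136436578-136436637 (-), Alb at chr5:90901598-90901657 (+), Krt8 at chr15:101828827-101828886 (-) and Hspa1a at chr17:35107117-35107176 (-); whether a probe lies in an exon or UTR is not annotated in the files.
Clec4f: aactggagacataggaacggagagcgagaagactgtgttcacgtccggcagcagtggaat
Pycard: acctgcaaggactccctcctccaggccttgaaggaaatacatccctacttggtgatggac
C1qb: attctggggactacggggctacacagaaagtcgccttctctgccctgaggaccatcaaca
Alb: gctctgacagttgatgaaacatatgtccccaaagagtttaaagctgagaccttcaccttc
Krt8: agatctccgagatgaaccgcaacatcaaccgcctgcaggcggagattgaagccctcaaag
Hspa1a: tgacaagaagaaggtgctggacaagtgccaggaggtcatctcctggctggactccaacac

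The labelled cell types were checked first against 4 markers. Clec4f and Cd5l were abundant in both preparations, Lrat was at the edge of detection in both, and Alb was the one marker of the 4 that differed. The Clec4f log2 signal was 14.41, 14.58, 14.36 and 15.92 in Ito replicates 1 to 4 and 15.75, 15.62, 14.51 and 16.30 in Kupffer replicates 1 to 4. The groups overlapped, and the Kupffer minus Ito difference was 0.73 ± 0.62 (SE, adjusted p = 0.53), where SE is the standard error of the limma fit and the adjusted p is over all probes. For Cd5l the signal was 14.48, 15.24, 14.51 and 17.82 in Ito and 15.65, 15.60, 15.08 and 18.08 in Kupffer samples, with replicate 4 highest in both groups and a difference of 0.59 ± 0.91 (SE, adjusted p = 0.785). Lrat, the enzyme that esterifies retinol, read 4.03, 3.78, 4.60 and 4.11 in Ito and 4.18, 3.88, 2.81 and 3.44 in Kupffer samples, and its probe was well above background on 2 of 4 Ito and 2 of 4 Kupffer arrays. Its difference was -0.55 ± 0.39 (SE, adjusted p = 0.423). The labelled Ito cells were therefore not marked by Lrat on these arrays. Albumin did not overlap between groups: its signal was 15.38, 15.71, 15.42 and 17.48 in Ito and 14.28, 14.29, 11.84 and 13.71 in Kupffer samples. That is a difference of -2.47 ± 0.56 (SE, adjusted p = 0.00279), or 5.55-fold less in Kupffer cells, and -2.04 (adjusted p = 0.0257) without replicate 4. Without KC replicate 3 as well, an alternative added after the values were seen, it was -1.22 (adjusted p = 0.216) and no longer called. In an exact two-sided permutation test of 4 samples against 4, whose smallest possible p is 0.0286, the p was 0.314 for Clec4f, 0.486 for Cd5l, 0.2 for Lrat and 0.0286 for Alb.

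The wider marker lists were counted next. A gene was called where it passed both 2-fold and an adjusted p of 0.05 in the limma fit, which 4.65% of all probes passed as higher in Kupffer cells and 4.04% as lower. Of 18 Kupffer identity genes measured, 17 were well above background on all 4 arrays of each group, 1 was higher in Kupffer cells and 1 lower, and the other 16 were not called, whether or not replicate 4 was kept. The difference was above 0 in 13 of the 18, with a median of 0.58, and 0.71 without replicate 4. The list's mean log2 signal ranged from 12.12 to 13.40 in the Ito samples and from 12.02 to 13.59 in the Kupffer samples. The member that was higher was Cd163, the hemoglobin-haptoglobin receptor, which was well above background on 1 of 4 Ito and 3 of 4 Kupffer arrays. Its signal was 1.999, 4.13, 2.84 and 3.10 in Ito and 4.84, 4.33, 3.89 and 5.16 in Kupffer samples, with a fitted difference of 1.54 ± 0.33 (SE, adjusted p = 0.00179) set against a level near background. With Ito values raised to the lowest detected signal of each array it was at least 1.23-fold higher, and with normexp background correction and quantile normalization the difference was 0.39 (adjusted p = 0.00282) and under 2-fold. The member that was lower was Clec1b (CLEC-2), a lectin of Kupffer cells, endothelium and platelets, with 12.41, 12.38, 12.36 and 12.32 in Ito and 9.92, 9.85, 9.66 and 9.71 in Kupffer samples. Its groups were far apart, at -2.59 ± 0.41 (SE, adjusted p = 6.37e-05). Ferroportin (Slc40a1), the iron exporter of macrophages, did not overlap either, with means of 13.91 ± 0.24 in Ito and 11.85 ± 0.34 in Kupffer cells (SD, n = 4). It missed the threshold at a difference of -2.06 ± 0.74 (SE, adjusted p = 0.0619). That SE comes from the fit to all 8 groups of the series and exceeds the SD of either group here. Timd4, a phagocytic receptor for phosphatidylserine, had means of 10.25 ± 0.48 in Ito and 11.22 ± 0.08 in Kupffer cells (SD, n = 4) and a difference of 0.97 ± 0.49 (SE, adjusted p = 0.222). The scavenger receptor Marco, the complement receptor Vsig4, Emr1 (now Adgre1, F4/80) and the transcription factor Spic gave -0.25, 0.21, -0.07 and -0.34, and none of them passed. Folr2, the folate receptor of resident macrophages, had the largest difference above 0 in the list and was not called, at 1.97 ± 0.93 (SE, adjusted p = 0.176). In bulk samples, fewer cells of a type and less RNA per cell cannot be told apart.

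Of 25 genes of quiescent Ito cells, 23 were well above background on every Ito array and 22 on every Kupffer array. A single member was higher in Kupffer cells, 3 were lower and 21 were not called, and without replicate 4 the counts were the same, with 2 of the lower members called in both fits. The mean log2 signal of the list ranged from 8.80 to 9.04 in Ito and from 8.47 to 8.78 in Kupffer samples. Rgs5, a G-protein regulator of pericytes, was lower in Kupffer cells, with 10.83, 10.83, 10.70 and 12.64 in Ito and 9.12, 9.02, 8.001 and 9.22 in Kupffer samples. The difference was -2.41 ± 0.49 (SE, adjusted p = 0.00111). The interferon-induced membrane protein Ifitm1 had means of 12.45 ± 0.83 in Ito and 10.64 ± 0.34 in Kupffer cells (SD, n = 4) and a difference of -1.81 ± 0.36 (SE, adjusted p = 0.00083). The collectin Colec10 was also lower (-1.30 ± 0.41 SE, adjusted p = 0.0306), and without replicate 4 it was -1.08 (adjusted p = 0.154). Lhx2, a transcription factor that restrains stellate activation, went the other way. It read 8.75, 8.81, 9.001 and 9.26 in Ito and 11.19, 11.30, 10.86 and 10.65 in Kupffer samples, a difference of 2.05 ± 0.22 (SE, adjusted p = 5.18e-07). Decorin (Dcn) was among the brightest signals in both groups, with means of 17.35 ± 0.43 in Ito and 16.50 ± 0.18 in Kupffer cells (SD, n = 4) and a difference of -0.85 ± 0.40 (SE, adjusted p = 0.179). Desmin (Des) and reelin (Reln), both used to identify stellate cells, were dim in both: Des read 5.64, 5.74, 5.31 and 6.20 in Ito and 5.56, 5.10, 6.31 and 6.06 in Kupffer samples, and Reln read 5.97, 5.87, 5.86 and 4.54 in Ito and 5.34, 5.53, 3.30 and 4.22 in Kupffer samples. Their differences were 0.03 ± 0.69 (SE, adjusted p = 0.995) for Des and -0.96 ± 0.48 (SE, adjusted p = 0.21) for Reln, whose probe was well above background on 2 of 4 Kupffer arrays.

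**Figure D1:**
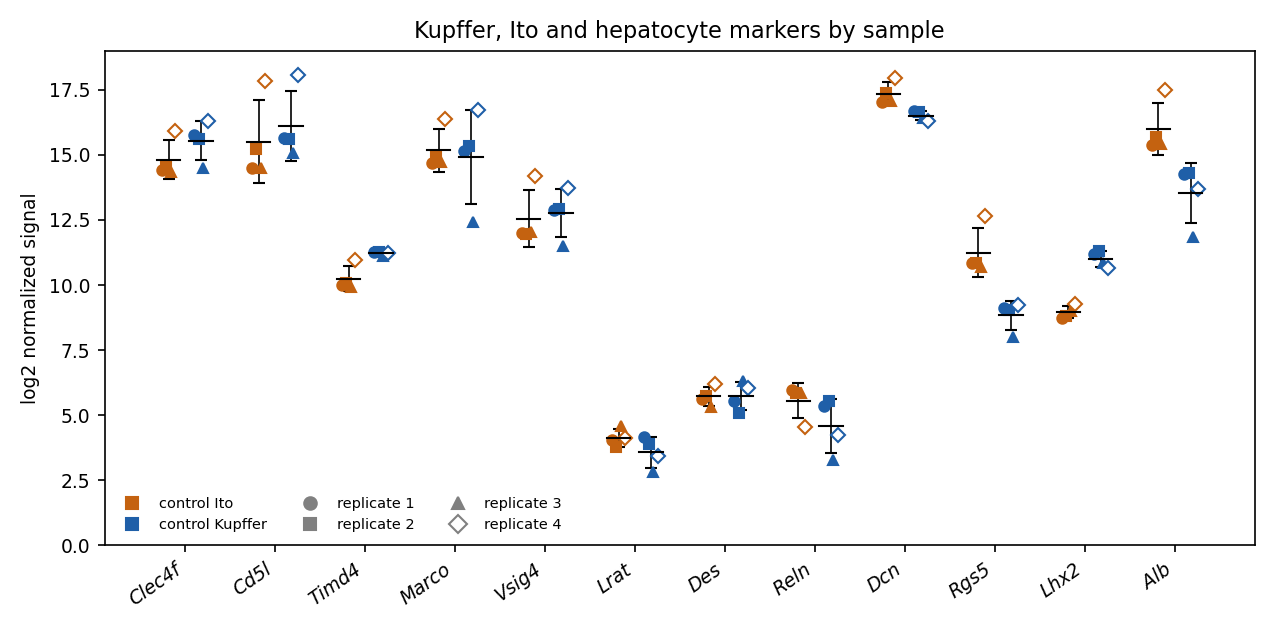
Log2 normalized signal (vertical axis) of 12 marker genes in each control Ito (orange) and control Kupffer (blue) sample, with bars for the mean and SD of 4 samples and open diamonds for replicate 4. The Kupffer markers Clec4f and Cd5l lie above 14 in all 8 samples, Lrat lies below 5 in all 8, and Timd4, Dcn, Rgs5, Lhx2 and Alb do not overlap between groups.

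Over all 55681 probes, 2591 (4.65%) were higher and 2250 (4.04%) lower in control Kupffer than in control Ito cells at an adjusted p under 0.05 and at least 2-fold (limma). These probes carry 2125 and 1883 distinct names. Without replicate 4 of both groups the counts were 2645 (4.75%) and 2302 (4.13%), and 2265 of the higher and 1840 of the lower probes were called in both fits. In 1956 of the higher and 1895 of the lower probes the 4 values of one group did not overlap those of the other. The share of such probes among all probes was not counted. Most of the called probes were expressed on both sides: 1773 of the higher and 1449 of the lower were well above background in all 8 samples, while 421 of the higher were not well above background in any Ito sample and 325 of the lower in any Kupffer sample. Of all 55681 probes, 22385 were well above background in all 8 samples. At the stricter setting of an adjusted p under 0.001 and 4-fold, 328 probes were higher and 202 lower.

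**Figure D2:**
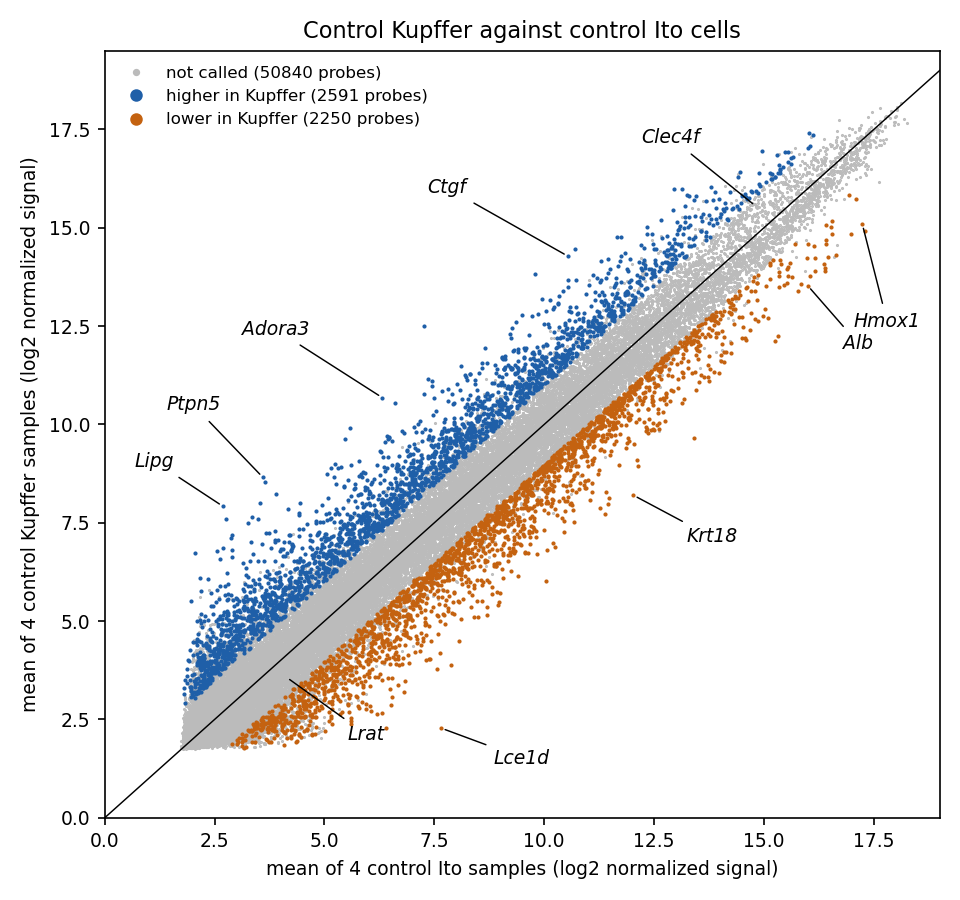
Mean log2 normalized signal of the 4 control Kupffer samples (vertical) against that of the 4 control Ito samples (horizontal) for every probe, with called probes in blue (2591 higher in Kupffer) and orange (2250 lower). Clec4f and Lrat sit near the diagonal, and Krt18, Lce1d, Alb and Hmox1 lie below it.

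Genes that macrophages in general use were counted apart from those of Kupffer identity. Of 27 macrophage and phagocyte genes, 6 were higher and none lower, 25 had a difference above 0, and the median was 0.85 on the log2 scale against -0.01 over all probes. All 6 were also called without replicate 4. Fcgr4, the activating receptor for IgG2 antibodies, read 11.25, 10.68, 11.09 and 14.003 in Ito and 14.49, 14.51, 14.63 and 15.42 in Kupffer samples, a difference of 3.01 ± 0.68 (SE, adjusted p = 0.00292) or 8.04-fold. Over 28 alternative settings its difference ranged from 2.65 to 3.76, and the call was lost in 2 of them. Siglec1 (CD169, sialoadhesin), which binds sialic acid on cells and exosomes, read 11.05, 11.34, 11.22 and 12.19 in Ito and 14.33, 14.34, 13.01 and 15.13 in Kupffer samples, a difference of 2.75 ± 0.67 (SE, adjusted p = 0.0052). In both genes every Kupffer sample was above every Ito sample. The other 4 were Sfpi1 (now Spi1, PU.1), the master transcription factor of myeloid cells (2.07 ± 0.45 SE, adjusted p = 0.00212), the fractalkine receptor Cx3cr1 (1.77 ± 0.41 SE, adjusted p = 0.00377), the receptor tyrosine kinase Axl (1.22 ± 0.22 SE, adjusted p = 0.000374) and Ncf1, a subunit of the phagocyte oxidase (1.68 ± 0.50 SE, adjusted p = 0.0228). Cx3cr1 was well above background on 1 of 4 Ito arrays, so its difference is set against a level near background, and its other 2 probes were not called. Cd68, Csf1r, Lyz2 and Cd14 were not called, with differences of 0.66, 0.85, 0.53 and 0.41. Itgax (CD11c), an integrin that binds complement fragment iC3b, was higher as well, at 7.46, 7.43, 7.55 and 7.67 in Ito and 10.87, 10.87, 9.29 and 10.37 in Kupffer samples, a difference of 2.82 ± 0.56 (SE, adjusted p = 0.000763).

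Pattern recognition genes were counted next. Of 26 Toll-like receptor and inflammasome genes, 5 were higher and none lower, and 24 had a difference above 0 (median 0.80). Without replicate 4 of both groups the count was 7, the 5 included, and without IC replicate 4 alone the count was 9. Nod2, the cytosolic sensor of muramyl dipeptide, read 8.90, 8.96, 8.94 and 9.59 in Ito and 11.30, 11.59, 11.15 and 11.58 in Kupffer samples, a difference of 2.31 ± 0.18 (SE, adjusted p = 3.49e-09). Pycard, the adaptor whose probe is shown above, read 9.64, 9.35, 9.56 and 11.75 in Ito and 12.61, 12.47, 12.42 and 12.66 in Kupffer samples, a difference of 2.46 ± 0.45 (SE, adjusted p = 0.000312). Neither gene overlapped between groups, although the library labelled IC replicate 4 was the highest Ito value in both. Tlr12, which recognizes profilin of protozoa, was higher by 1.79 ± 0.18 (SE, adjusted p = 2.02e-07) and the inflammasome sensor Nlrp3 by 1.23 ± 0.30 (SE, adjusted p = 0.00517). The receptors for lipopolysaccharide and lipopeptide, Tlr4 and Tlr2, gave 0.07 and -0.64 and were not called.

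Of 16 genes of antigen presentation on MHC class II, 5 were higher and none lower (median 0.94), 4 of them also among the 5 called without replicate 4, and the count was 3 without replicate 1 of both groups. H2-DMa, a chain of the chaperone that loads peptide, read 8.74, 8.89, 8.69 and 9.54 in Ito and 10.75, 10.47, 9.98 and 10.73 in Kupffer samples, a difference of 1.52 ± 0.21 (SE, adjusted p = 1.46e-05). The costimulatory receptor Cd40 read 12.92, 12.83, 12.99 and 12.45 in Ito and 14.93, 15.07, 14.34 and 13.38 in Kupffer samples, a difference of 1.63 ± 0.33 (SE, adjusted p = 0.00103), and Cd86, the ligand of CD28, differed by 1.42 ± 0.42 (SE, adjusted p = 0.0199). H2-Oa, which restrains H2-DM, differed by 2.21 ± 0.45 (SE, adjusted p = 0.00107), and was well above background on 3 of 4 Ito arrays.

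Among 34 chemokines, cytokines and their receptors, 5 were higher and 1 was lower (median 0.86). Il10, the anti-inflammatory cytokine, read 7.40, 7.27, 7.43 and 9.93 in Ito and 11.20, 11.11, 10.32 and 11.53 in Kupffer samples, a difference of 3.03 ± 0.63 (SE, adjusted p = 0.00124). Ccl12, a monocyte chemoattractant, read 8.52, 8.25, 8.53 and 13.90 in Ito and 13.74, 13.87, 12.17 and 15.51 in Kupffer samples. The library labelled IC replicate 4 lay within the Kupffer range. The difference was 4.02 ± 1.33 (SE, adjusted p = 0.0398), and 4.82 (adjusted p = 0.017) without replicate 4. Cxcl2, a neutrophil chemoattractant, was the member that was lower, at 15.50, 15.39, 15.37 and 13.18 in Ito and 13.47, 13.40, 11.66 and 12.03 in Kupffer samples, a difference of -2.22 ± 0.75 (SE, adjusted p = 0.0442). The number of calls depended on the samples kept. Without replicate 4, 3 members were higher, namely Il10, Ccl12 and the chemokine receptor Ccr1, and 2 or 3 were higher when IC replicate 1, 2 or 3 or KC replicate 1, 2 or 4 was left out alone.

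Growth factors that act on stellate cells were measured as well, since Kupffer cells are a known source of PDGF and TGF-beta. Of 29 genes of these pathways and of BMP signaling, 5 were higher and 2 lower in Kupffer cells (median 0.71), and those 7 were also called without replicate 4, when 7 were higher and 2 lower. Pdgfb, a mitogen for stellate cells, read 9.38, 9.52, 9.51 and 9.88 in Ito and 11.69, 11.73, 12.16 and 12.01 in Kupffer samples, a difference of 2.32 ± 0.41 (SE, adjusted p = 0.000218). The ligands Tgfb1 and Tgfb3 differed by 1.12 ± 0.29 (SE, adjusted p = 0.00793) and 1.90 ± 0.45 (SE, adjusted p = 0.00452). Acvrl1 (ALK1), a receptor for BMP9 and BMP10, read 11.53, 11.54, 11.58 and 12.85 in Ito and 13.62, 13.49, 14.25 and 14.43 in Kupffer samples, a difference of 2.07 ± 0.38 (SE, adjusted p = 0.000407). The inhibitory Smad6 was higher by 1.33 ± 0.24 (SE, adjusted p = 0.000327), while Tgfbr1, the type I TGF-beta receptor, and Bmp6, an inducer of hepcidin, were lower, at -1.12 ± 0.30 (SE, adjusted p = 0.0106) and -1.46 ± 0.37 (SE, adjusted p = 0.00791). A second, dimmer Tgfbr1 probe above background on all 8 arrays gave -0.78 ± 0.33 (SE, adjusted p = 0.123) and was not called. The PDGF receptors of stellate cells, Pdgfra and Pdgfrb, gave 1.24 and 0.41 and were not called.

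Matrix and contractile genes of activated Ito cells did not mark the Ito samples. Of 29 measured, 3 were higher in Kupffer cells, 1 was lower and 25 were not called (median 0.31). Ctgf (now Ccn2), a matricellular protein induced by TGF-beta and YAP, read 11.10, 11.50, 11.28 and 8.28 in Ito and 14.52, 14.70, 14.52 and 13.38 in Kupffer samples. All Kupffer values lay above all Ito values, a difference of 3.74 ± 1.11 (SE, adjusted p = 0.0218), and without replicate 4 it was 3.29 (adjusted p = 0.0883). Thbs1, which activates latent TGF-beta, differed by 1.95 ± 0.55 (SE, adjusted p = 0.0161), and by 1.73 (adjusted p = 0.0851) without replicate 4. Without replicate 4, 1 member stayed called in each direction, namely Tgfb1 and the lower member, fibronectin (Fn1, -1.98 ± 0.54 SE, adjusted p = 0.0119). Acta2 (smooth muscle actin) and Col1a1 gave -0.26 and 0.42 and were not called, with Acta2 means of 6.65 ± 1.33 in Ito and 6.39 ± 0.76 in Kupffer cells (SD, n = 4).

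The genes with the largest differences in favor of Kupffer cells were a mixed group. By the rule used (called, well above background in all 4 Kupffer samples, groups apart, named by a gene symbol), the 12 largest were Lipg, Ptpn5, Hist3h2ba, Adora3, Ildr1, Tenm4, Mgarp, Igsf9, Dlgap2, Prm1, Cd276 and Slc26a4. The rule takes the probe of a gene with the largest difference, which need not be its brightest, and it asks for signal above background in Kupffer cells alone. Adora3, Igsf9, Prm1 and Slc26a4 were well above background on all 8 arrays, with differences from 3.77 to 4.37. The other 8 were above it on 1 of 4 Ito arrays, so their fitted differences, up to 5.23, are set against levels near background and their order is not a measured one. Lipg, endothelial lipase, which cleaves phospholipids of HDL, read 1.82, 1.89, 2.55 and 4.50 in Ito and 8.02, 8.16, 7.37 and 8.13 in Kupffer samples. The fitted difference was 5.23 ± 0.48 (SE, adjusted p = 5.16e-08). With each Ito value raised to the lowest detected signal of its array, in background-corrected and loess-normalized values, Kupffer cells were at least 4.59-fold higher. Ptpn5, a tyrosine phosphatase known from neurons, read 2.70, 3.22, 3.24 and 5.22 in Ito and 8.22, 8.39, 9.39 and 8.64 in Kupffer samples with this probe, a fitted difference of 5.06 ± 0.38 (SE, adjusted p = 3.07e-09) and a bound of 6.21-fold. The brightest Ptpn5 probe did not follow it: its means were 10.87 in Ito and 11.70 in Kupffer cells on 4 of 4 arrays of each group, a difference of 0.83 ± 0.43 (SE, adjusted p = 0.225), and it was not called. Another probe, dim, was called at 2.91 ± 0.41 (SE, adjusted p = 1.85e-05), with 0 of 4 Ito and 4 of 4 Kupffer arrays above background. Adora3, the adenosine A3 receptor, read 5.81, 5.40, 5.77 and 8.27 in Ito and 10.68, 10.78, 10.45 and 10.82 in Kupffer samples (4.37 ± 0.67 SE, adjusted p = 4.83e-05), and Igsf9, a cell adhesion protein, read 5.21, 5.52, 5.41 and 5.75 in Ito and 9.61, 9.92, 8.46 and 10.51 in Kupffer samples (4.15 ± 0.43 SE, adjusted p = 3.53e-07). The rule asked for groups apart, and Adora3 had a raised value in IC replicate 4. The brightest Igsf9 probe, with means of 15.81 in Ito and 16.59 in Kupffer cells, gave 0.78 ± 0.29 (SE, adjusted p = 0.0684) and was not called, and a dim second Adora3 probe gave 0.14 ± 0.47 (SE, adjusted p = 0.934). The brightest probe of Tenm4 was called at 1.08 ± 0.30 (SE, adjusted p = 0.0135), below the 4.28 of the probe the rule took. Of its other 2 probes, one was above background on all 8 arrays and called at 3.36 ± 0.64 (SE, adjusted p = 0.000542), and a dim one gave -0.17 ± 0.43 (SE, adjusted p = 0.893). Cd276 (B7-H3), an immune checkpoint ligand, had a fitted difference of 3.92 ± 0.49 (SE, adjusted p = 3.94e-06) and was at least 2.14-fold higher. Outside this rule, Ccnd1 (cyclin D1), a member of the cell cycle list and the only one of its 28 genes that was called, read 9.03, 9.27, 9.31 and 9.43 in Ito and 12.93, 12.74, 12.18 and 11.98 in Kupffer samples, a difference of 3.20 ± 0.32 (SE, adjusted p = 1.65e-07).

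In the opposite direction, the hepatocyte list held the most called genes of the 29 gene lists. Of 33 hepatocyte genes measured (34 were listed), 25 were lower in Kupffer cells, none was higher and 3 had a difference above 0. The median was -2.09, against -0.01 over all probes. The list's mean log2 signal ranged from 10.90 to 11.98 in Ito samples and from 8.39 to 10.07 in Kupffer samples, and 28 of the 33 were well above background on all 4 Kupffer arrays. Gc, the vitamin D binding protein, read 13.32, 13.59, 13.48 and 14.58 in Ito and 12.06, 12.19, 9.17 and 11.04 in Kupffer samples, a difference of -2.63 ± 0.48 (SE, adjusted p = 0.000315). Cyp2c29, a cytochrome P450 of hepatocytes, read 9.79, 9.81, 9.76 and 9.88 in Ito and 8.48, 8.25, 5.81 and 6.61 in Kupffer samples, a difference of -2.52 ± 0.46 (SE, adjusted p = 0.000327). Rbp4 and Ttr, which together carry retinol in plasma, differed by -2.26 ± 0.61 (SE, adjusted p = 0.011) and -2.29 ± 0.36 (SE, adjusted p = 7.31e-05). Without replicate 4, Rbp4 was -2.01 (adjusted p = 0.0626) and not called, and Ttr was called. Cps1, the entry enzyme of the urea cycle, was among the 25 but not well above background on any Kupffer array. Among the 8 members not called were Serpina1b, Trf, Hp, Ass1, Pck1, G6pc and Cyp1a2. The count depended on the samples kept. It was 17 without replicate 4 of both groups (median -1.79) and 5 when KC replicate 3, the dimmest array, was left out as well, an alternative added after the values were seen. In Kupffer replicates 1 and 2 the mean level of the list was 10.07 and 9.96, within about 1 log2 unit of Ito replicates 1 to 3 at 10.90, 11.03 and 11.03.

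Promoters of 3 lower hepatocyte genes are shown because one motif of liver transcription is frequent in the hepatocyte list. HNF1, a homeodomain factor of hepatocytes, binds a palindrome of the motif GTTAAT, which reads ATTAAC on the other strand. RefSeq promoter windows (GRCm38.p6, 250 bases before to 50 after the start) were found for 21 of the 25 lower genes, and 7 of those 21 (33.3%) held the motif on either strand in at least 1 window, against 8.24% of 27025 genes. Over all measured hepatocyte members it was 10 of the 26 with a window (38.5%), so the motif was no more frequent among the lower genes than in the list they came from. The windows of Alb (chr5:90460620-90460919, plus strand), Gc (chr5:89457849-89458148, minus strand) and Fga (chr3:83025903-83026202, plus strand) are printed with the motif in capitals. A match describes the letters only and says nothing of binding.
Alb: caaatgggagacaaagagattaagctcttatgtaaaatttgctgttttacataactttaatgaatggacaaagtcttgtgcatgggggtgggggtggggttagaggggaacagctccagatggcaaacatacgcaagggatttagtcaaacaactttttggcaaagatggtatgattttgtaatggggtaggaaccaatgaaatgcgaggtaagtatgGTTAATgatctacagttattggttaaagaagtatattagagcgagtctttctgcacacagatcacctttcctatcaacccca
Gc: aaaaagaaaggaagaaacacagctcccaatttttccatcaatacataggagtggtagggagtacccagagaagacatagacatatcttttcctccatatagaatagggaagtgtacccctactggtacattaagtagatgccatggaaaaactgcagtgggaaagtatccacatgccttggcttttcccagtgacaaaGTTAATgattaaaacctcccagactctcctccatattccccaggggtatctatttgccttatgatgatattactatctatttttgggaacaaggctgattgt
Fga: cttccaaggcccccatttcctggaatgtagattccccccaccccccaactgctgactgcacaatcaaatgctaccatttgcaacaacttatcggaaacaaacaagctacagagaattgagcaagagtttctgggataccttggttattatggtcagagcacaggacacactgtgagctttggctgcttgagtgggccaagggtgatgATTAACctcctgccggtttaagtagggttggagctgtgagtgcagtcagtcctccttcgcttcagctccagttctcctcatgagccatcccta

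Complement genes were called in both directions. Of 31 complement genes, 11 were lower in Kupffer cells and 3 were higher. The lower ones, mostly known as products of hepatocytes, were C1s, Cfi, C8a, C8b, C8g, C9, Hc (C5), Masp2, Mbl1, Mbl2 and C4bp; C8b, a subunit of the membrane attack complex, read 9.39, 9.42, 9.47 and 9.55 in Ito and 8.40, 8.09, 4.84 and 6.53 in Kupffer samples, a difference of -2.49 ± 0.48 (SE, adjusted p = 0.00066). Without replicate 4 the count was 9, and without KC replicate 3 as well it was 2. The 3 higher members are known from macrophages and other myeloid cells. C1qb read 12.15, 11.92, 11.92 and 14.12 in Ito and 14.38, 13.88, 13.65 and 14.81 in Kupffer samples (1.65 ± 0.50 SE, adjusted p = 0.0229), C5ar1, the receptor of the anaphylatoxin C5a, had a fitted difference of 3.39 ± 0.85 (SE, adjusted p = 0.0062) and was at least 2.63-fold higher, being well above background on 1 of 4 Ito arrays, and Itgax was given above. The list's mean level overlapped between groups, from 10.41 to 11.72 in Ito and from 9.08 to 10.82 in Kupffer samples, and like the hepatocyte list it was lowest in KC replicate 3; the part of hepatocyte RNA in these differences was not tested.

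Among the 12 genes highest in Ito cells by the same rule were genes of hepatocytes, of keratin filaments and of tissues other than liver: Lce1d, Igfbp1, Krt18, Saa2, Gli1, Adh7, Rhox3a, Krt8, Sult1e1, Sgol2, Uox and Kcne4. Krt18, Saa2, Krt8 and Sult1e1 were well above background on all 8 arrays, with differences from -3.48 to -3.83. Igfbp1 and Sgol2 were above it on 3 of 4 Kupffer arrays, Adh7 and Uox on 2, Kcne4 on 1, and Lce1d, Gli1 and Rhox3a on 0, so the order of the 12 is in part set by levels near background. Brighter probes of Uox and Kcne4 gave -3.12 ± 0.70 (SE, adjusted p = 0.00256) and -3.21 ± 0.69 (SE, adjusted p = 0.00183). Krt18 and Krt8 are the keratin pair of simple epithelia, hepatocytes and bile ducts. Krt18 read 11.93, 12.24, 12.03 and 11.93 in Ito and 8.51, 8.48, 8.80 and 7.02 in Kupffer samples, a difference of -3.83 ± 0.79 (SE, adjusted p = 0.00116), and the probe of Krt8 shown above read 8.54, 9.81, 8.32 and 9.11 in Ito and 5.61, 5.39, 5.70 and 4.95 in Kupffer samples, a difference of -3.53 ± 0.81 (SE, adjusted p = 0.00302). The rule asked that the groups be apart. A second, brighter Krt8 probe gave -3.37 ± 0.90 (SE, adjusted p = 0.0107), and its adjusted p was 0.0666 without replicate 4. Krt18 was -3.47 (adjusted p = 0.0121) without replicate 4. Igfbp1, a hepatocyte protein that binds insulin-like growth factors, read 9.75, 9.81, 9.42 and 11.18 in Ito and 6.16, 5.65, 4.11 and 8.16 in Kupffer samples (-4.02 ± 0.60 SE, adjusted p = 3.77e-05). Saa2, an acute phase protein whose probe may also read its near-identical neighbor Saa1, read 12.98, 12.93, 12.92 and 14.77 in Ito and 9.57, 9.62, 8.39 and 11.05 in Kupffer samples (-3.74 ± 0.57 SE, adjusted p = 4.24e-05), and the estrogen sulfotransferase Sult1e1 read 8.61, 8.62, 8.52 and 10.12 in Ito and 5.44, 5.53, 5.03 and 5.96 in Kupffer samples (-3.48 ± 0.32 SE, adjusted p = 6.1e-08). Lce1d, a gene of the skin barrier with close family members, was not well above background in any Kupffer sample, so its difference has only a bound: it read 8.52, 8.62, 8.76 and 4.73 in Ito and 2.15, 2.53, 2.23 and 2.21 in Kupffer samples and was at least 3.69-fold higher in Ito cells. Gli1, the Hedgehog effector, and Rhox3a, a reproductive homeobox gene, were likewise not well above background in Kupffer cells and were at least 1.88-fold and 1.89-fold higher in Ito cells. These bounds use background-corrected, loess-normalized values. In all 3, IC replicate 4 was the lowest Ito sample. A second Gli1 probe was well above background on 0 arrays of either group, and gave 0.15 ± 0.35 (SE, adjusted p = 0.878).

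**Figure D3:**
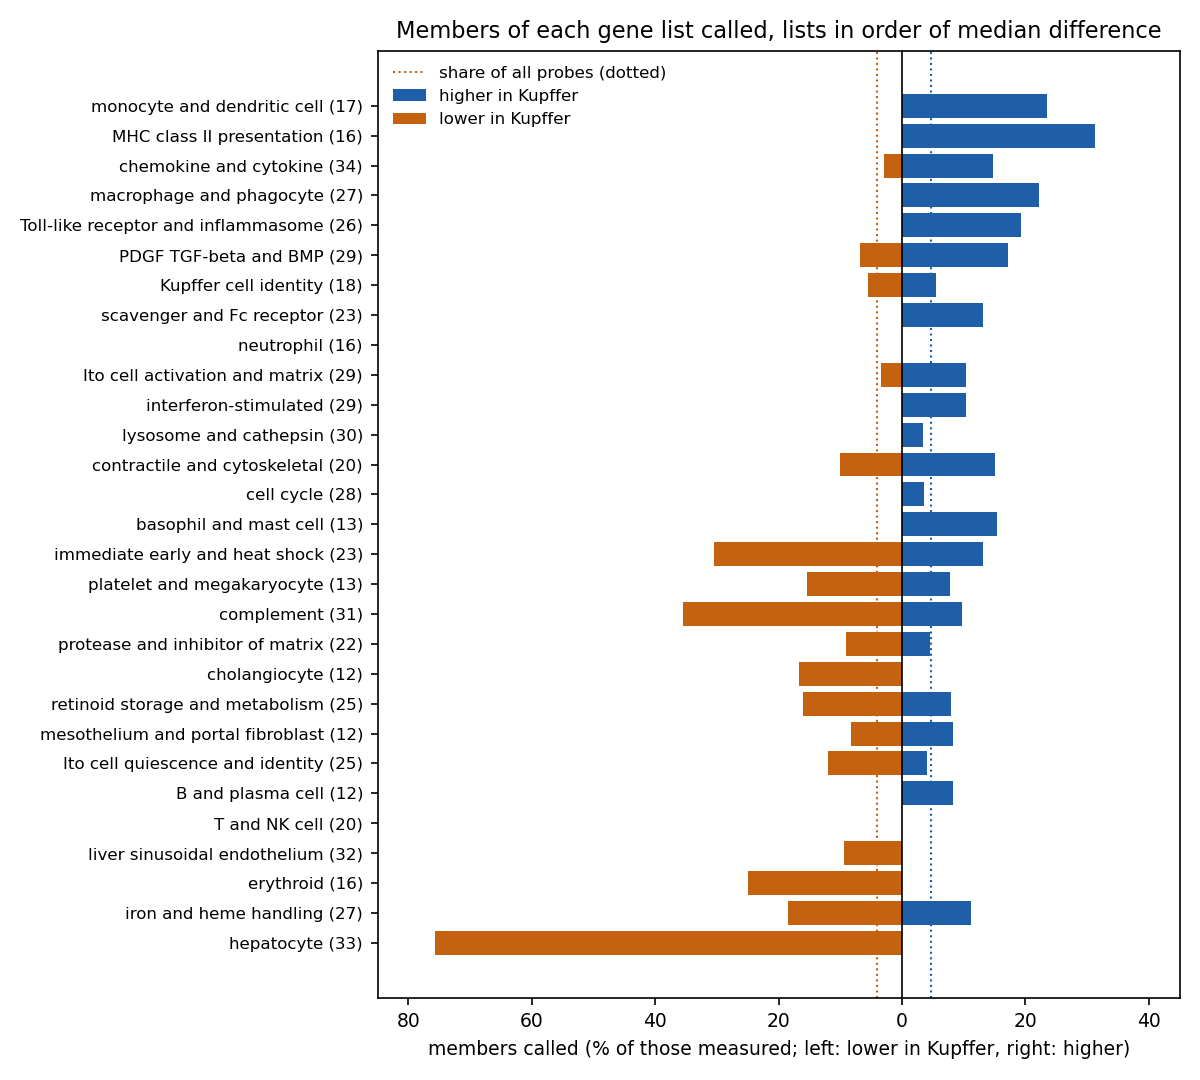
Share of each list's measured genes (number in parentheses) called higher in control Kupffer cells (blue, right) or lower (orange, left), in percent, with lists ordered by median difference and dotted lines at the share of all probes. The hepatocyte list extends farthest, with 25 of 33 genes lower.

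Iron and heme genes serve the recycling of red cells by Kupffer cells. Of 27 genes of iron and heme handling, 5 were lower and 3 higher (median -0.72); all 8 were also called without replicate 4, when 6 were lower and 3 higher. Hmox1, which degrades heme to biliverdin, carbon monoxide and iron, was one of the brightest genes on the arrays and read 17.54, 17.23, 17.34 and 16.85 in Ito and 14.94, 14.89, 14.48 and 16.04 in Kupffer samples. No Kupffer value reached the lowest Ito value, and the difference was -2.15 ± 0.28 (SE, adjusted p = 7.27e-06) or 4.44-fold. The metalloreductase Steap4 read 10.97, 10.62, 10.56 and 10.43 in Ito and 8.11, 8.13, 7.64 and 7.92 in Kupffer samples, a difference of -2.69 ± 0.25 (SE, adjusted p = 6.2e-08). Hemopexin (Hpx), which also belongs to the hepatocyte list, and the ferroxidase Heph, above background on 3 of 4 Kupffer arrays, differed by -2.50 ± 0.64 (SE, adjusted p = 0.00755) and -2.33 ± 0.56 (SE, adjusted p = 0.00424), and Slc48a1, a heme transporter, by -1.83 ± 0.23 (SE, adjusted p = 3.86e-06). Slc11a1 (NRAMP1), the metal transporter of the phagosome, was higher, at 1.59 ± 0.41 (SE, adjusted p = 0.00789). The other higher members were dim: Cd163, given above, and Hfe2 (hemojuvelin), which was above background on 0 of 4 Ito and 2 of 4 Kupffer arrays.

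Of 23 immediate early and heat shock genes, 7 were lower in Kupffer cells and 3 were higher; without replicate 4 the counts were 9 and 1, with all 7 lower genes called again. The chaperones Hspa1a, Hspb1, Hsph1 and Hsp90aa1 were among the lower genes. Hspa1a, whose probe may also read its twin Hspa1b, read 13.16, 13.04, 12.99 and 11.27 in Ito and 9.75, 9.81, 10.50 and 9.47 in Kupffer samples, a difference of -2.73 ± 0.54 (SE, adjusted p = 0.000826). Hspb1 (HSP25), a small heat shock protein, read 15.72, 15.44, 15.48 and 14.40 in Ito and 11.75, 11.65, 13.63 and 11.48 in Kupffer samples (-3.13 ± 0.63 SE, adjusted p = 0.000869), and Hsph1 (HSP105), a nucleotide exchange factor of HSP70, read 14.58, 14.29, 14.32 and 13.02 in Ito and 11.999, 11.95, 12.31 and 11.89 in Kupffer samples (-2.01 ± 0.28 SE, adjusted p = 1.9e-05). KC replicate 3 was the highest Kupffer sample in all 3. Fosb, Fosl1 and Myc were the other lower members, Fosb at -2.48 ± 0.59 (SE, adjusted p = 0.00448). Fos, Jun, Egr1 and Atf3, other immediate early genes, were not called, at 0.42, -0.65, -1.07 and 0.38. The 3 higher members were Nr4a1, Zfp36 and Btg2, of which Zfp36 stayed called without replicate 4 (1.36 ± 0.28 SE, adjusted p = 0.00106). With the replicate number as a block Nr4a1 was not called.

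Retinoid genes, a hallmark of Ito cells, gave a mixed result. Of 25 measured, 2 were higher in Kupffer cells, 4 were lower and 19, including Lrat, were not called. Of the lower members, Rbp4, Ttr and the esterase Ces1d are also products of hepatocytes, and Bcmo1 (now Bco1), which cleaves beta-carotene, differed by -1.22 ± 0.30 (SE, adjusted p = 0.00617). Aldh1a2, which makes retinoic acid, was higher in Kupffer cells: it read 6.84, 7.31, 6.88 and 6.32 in Ito and 8.73, 8.81, 9.79 and 8.95 in Kupffer samples, a difference of 2.23 ± 0.64 (SE, adjusted p = 0.0177). Without replicate 4 it was 2.10 (adjusted p = 0.0738), and 1 of the 2 higher and 2 of the 4 lower members were called; without KC replicate 3 alone, 0 members were higher and 2 lower.

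Genes of other cells that such preparations can hold were also counted. Of 32 genes of the sinusoidal endothelium, none was higher and 3 were lower (Wnt2, Rspo3 and F8), 2 of them without replicate 4, and Wnt2 was well above background on 0 of 4 Kupffer arrays. Rspo3, a Wnt amplifier of liver endothelium, read 13.20, 13.10, 13.21 and 11.72 in Ito and 11.55, 11.62, 11.25 and 10.60 in Kupffer samples (-1.55 ± 0.36 SE, adjusted p = 0.0033). Erythroid genes gave 4 lower of 16, led by the globins, with Hba-a1 at 14.29, 14.30, 14.30 and 15.86 in Ito and 12.57, 12.32, 12.61 and 12.10 in Kupffer samples (-2.29 ± 0.78 SE, adjusted p = 0.0483). The IC replicate 4 value stood far above the other Ito values, and with the replicate number as a block Hba-a1 was not called (adjusted p = 0.0597) and 2 erythroid genes were lower. No erythroid gene was called without replicate 4 of both groups, when the Hba-a1 difference was -1.79 (adjusted p = 0.227), or without IC replicate 4 alone, and between 0 and 2 were called without any other single sample. No neutrophil gene of 16 and no T or NK cell gene of 20 was called in either direction. Of either list, 0 genes had an unadjusted p under 0.05 (limma). Replicate 4 stood apart in these lists. The neutrophil mean log2 signal was 5.41 to 5.73 in Ito replicates 1 to 3 and 7.89 in IC replicate 4. In Kupffer replicates 1 to 3 it was 6.12 to 6.42, and 7.83 in KC replicate 4. The T and NK cell mean was 5.36 to 5.76 in Ito replicates 1 to 3 and 8.05 in IC replicate 4. In Kupffer samples it was 5.43 to 6.65. Without replicate 4 of both groups, 0 genes of either list were called. With normexp background correction 1 T or NK cell gene was higher, and without IC replicate 4 alone 2 neutrophil genes were. Of 17 monocyte and dendritic cell genes, 4 were higher, 2 without replicate 4, and Itgax alone was called in both fits. Xcr1 and Itgae, which are among the 4, were well above background on 0 of 4 Ito and 1 of 4 Kupffer arrays. The remaining counts, higher then lower, were 0 and 2 of 12 for cholangiocytes, 1 and 1 of 12 for mesothelium and portal fibroblasts, 1 and 0 of 12 for B and plasma cells, 1 and 2 of 13 for platelets, and 2 and 0 of 13 for basophils and mast cells. Without replicate 4 they were 0 and 1 for cholangiocytes, 0 and 1 for mesothelium and portal fibroblasts, and 1 and 0 for basophils and mast cells. For functional lists they were 3 and 0 of 23 for scavenger and Fc receptors, 1 and 0 of 30 for lysosomes, 3 and 2 of 20 for the contractile apparatus, 1 and 2 of 22 for proteases and inhibitors of matrix, and 3 and 0 of 29 for interferon-stimulated genes, with 1 of those 3 left without replicate 4. Without replicate 4 the counts were 1 and 1 for lysosomes, 3 and 3 for the contractile apparatus, and 1 and 1 for proteases and inhibitors of matrix. With the replicate number as a block Irf7, among the 3 higher interferon-stimulated genes, was not called.

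**Figure D4:**
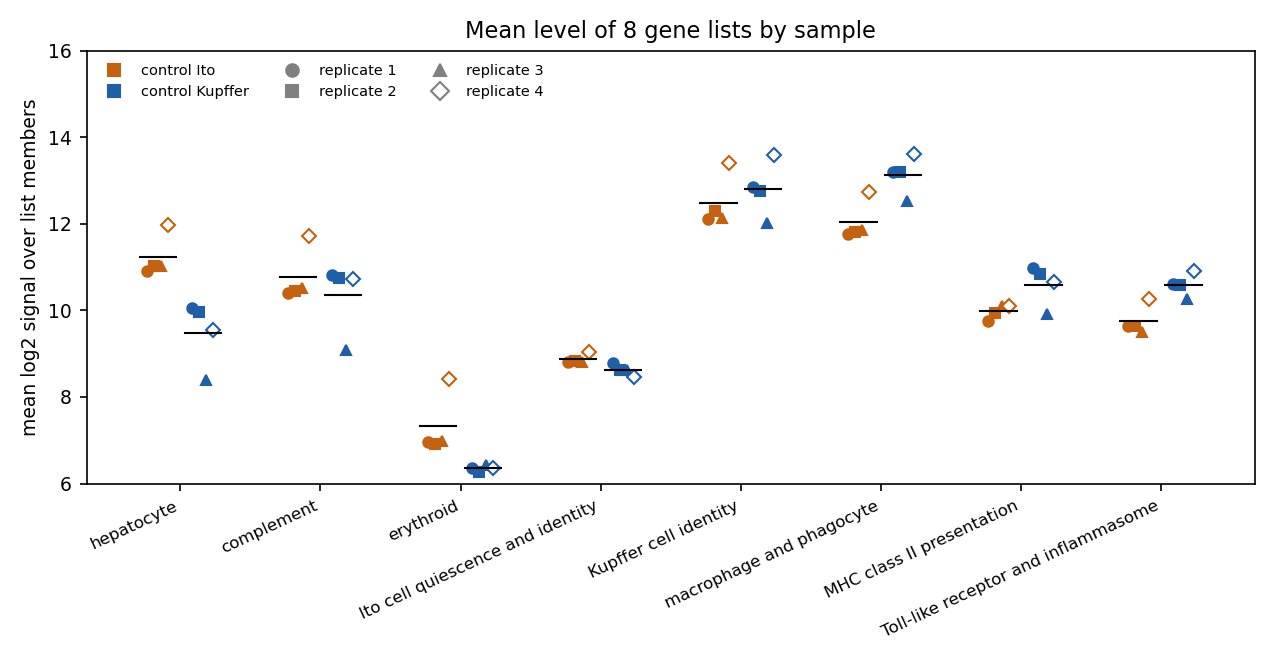
Mean log2 normalized signal over the measured genes of 8 lists (vertical axis) in each control Ito (orange) and control Kupffer (blue) sample, with a bar for the mean of 4 samples. The hepatocyte list separates the groups and is lowest in Kupffer replicate 3, the erythroid list stands out in Ito replicate 4, and the Kupffer identity list overlaps.

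Control endothelial cells, whose arrays lay on the Ito slide, show on which side a gene stood apart. Keratins were high in both preparations of that slide: Krt18 averaged 12.27 in endothelial cells, close to Ito cells (12.03) with a Kupffer minus endothelial difference of -4.07 (adjusted p = 0.000369). Clec1b followed the same order, at 12.83 in endothelial cells, with a Kupffer minus endothelial difference of -3.05 (adjusted p = 3.51e-06). Hmox1 and Hspa1a were highest in the samples labelled Ito, with endothelial means of 14.03 and 10.43 and Ito minus endothelial differences of 3.20 (adjusted p = 2.89e-08) and 2.19 (adjusted p = 0.00865). Fcgr4, Siglec1 and Nod2 averaged 11.26, 10.59 and 8.18 in endothelial cells, below the Ito means, and were higher in Kupffer than in endothelial cells by 3.50 (adjusted p = 0.000409), 3.61 (adjusted p = 0.000237) and 3.23 (adjusted p = 2.29e-12). Ctgf averaged 15.23 in endothelial and 14.28 in Kupffer cells, with an Ito minus endothelial difference of -4.70 (adjusted p = 0.00598). Clec4f averaged 12.81 in endothelial cells, with a Kupffer minus endothelial difference of 2.74 (adjusted p = 0.00186) and an Ito minus endothelial difference of 2.01 (adjusted p = 0.0384). Most genes of Ito identity, though not for example Rgs5 (11.25 in Ito, 10.56 in endothelial cells), averaged lower in the samples labelled Ito than in endothelial cells. Of the 25, 7 were lower in Ito than in endothelial cells (3.4% of all probes were), 0 were higher (3.02% of all probes), 22 had a difference below 0 and the median was -0.96; without replicate 4 of the Ito and Kupffer samples the counts were 8 and 0. The 7 were Pdgfra, Cygb, Hand2, Bmp10, Hhip, Lhx2 and Ecm1, with Ito minus endothelial differences of -2.80 (adjusted p = 0.00116) for Pdgfra, the PDGF receptor alpha, -2.50 (adjusted p = 0.00937) for Cygb, a globin of stellate cells, and -1.96 (adjusted p = 0.00687) for Bmp10, a ligand of the BMP family. Of the 18 Kupffer identity genes, 6 were higher in Ito than in endothelial cells and 0 lower, and without replicate 4 the counts were 2 and 0. Lrat was at 3.44, and Alb at 12.95 was nearer to Kupffer than to Ito cells, with an Ito minus endothelial difference of 3.04 (adjusted p = 0.000517). These contrasts share the Kupffer or Ito samples with the main comparison and are given side by side only. In some genes, though not in Clec4f, endothelial replicates 1 and 4 were alike, and so were 2 and 3. Ctgf read 14.70, 15.55, 15.98 and 14.71 and Pdgfra 9.51, 10.04, 10.05 and 9.49 in endothelial replicates 1 to 4. The adjusted p-values treat the 4 as separate samples.

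Both cell types were also measured in tumor-bearing mice, in other samples but on the same arrays and slides and in the other dye. In TME Kupffer against TME Ito cells, 2838 probes (5.1%) were higher and 1997 (3.59%) lower. Of the 2591 probes higher in control Kupffer cells, 1815 were also called higher in TME Kupffer cells and 2562 had a TME difference above 0. Of the 2250 lower probes, 1160 were called lower in TME cells and 2223 had a TME difference below 0. No probe was called in opposite directions. A test of the difference between both comparisons called 2 of 55681 probes at an adjusted p under 0.05 (limma), none of them called in controls. Its fit took no account of the shared arrays, and this test was not rerun with an array block or without replicate 4. Krt18 differed by -5.78 (adjusted p = 1.38e-05) in TME cells, Lipg by 4.74 (adjusted p = 2.37e-07), Alb by -2.34 (adjusted p = 0.00461) and Il10 by 3.20 (adjusted p = 0.000762), while Clec4f, not called in controls, differed by 1.80 (adjusted p = 0.0495). The arrays and slides are shared, so the pairs of comparisons are not independent of each other. The library labelled KC replicate 4 was also closer to the TME Kupffer libraries than to its own group. IC replicate 4 was nearest to IT replicate 1 but about equally close to both Ito groups.

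**Figure D5:**
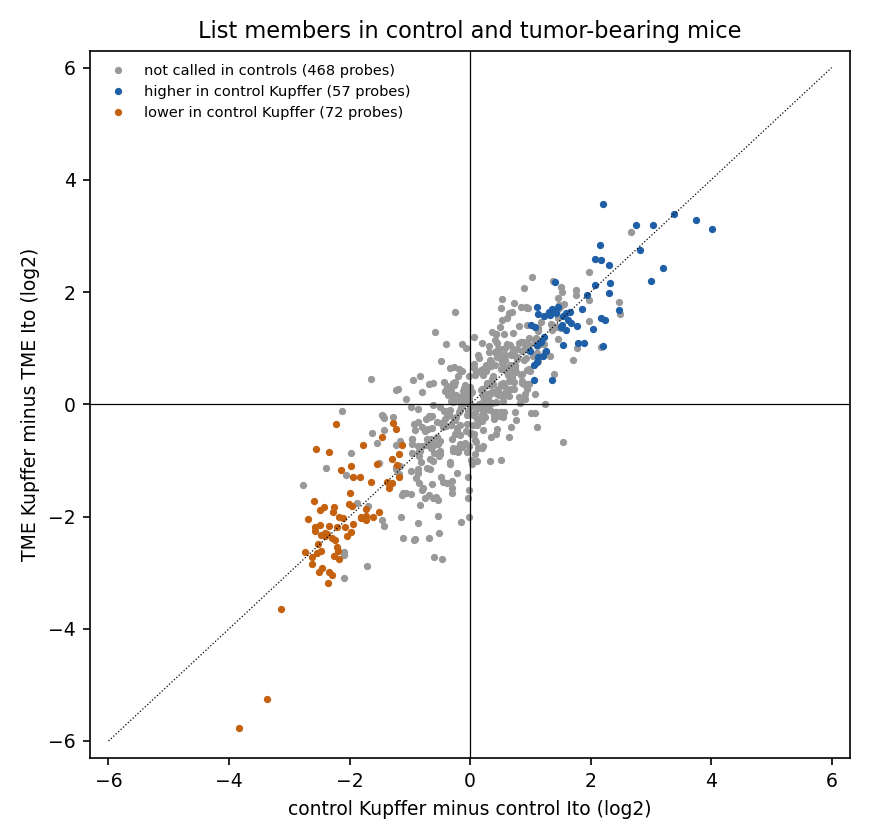
Difference of TME Kupffer minus TME Ito cells (vertical, log2) against that of control Kupffer minus control Ito cells (horizontal, log2) for the probes that read list genes, with the dotted line at equal values. All 57 list probes higher in control Kupffer cells (blue) lie above 0 in TME cells and all 72 lower ones (orange) lie below.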

How the data were processed

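Total RNA of 32 samples was labelled and hybridized in pairs on 16 Agilent mouse arrays, per the labels. For each channel the authors deposited spot intensities from Feature Extraction 10.7.3.1. These were background-corrected and dye-normalized by LOWESS within the array, so a Cy3 value depends in part on its partner sample. The authors' value table of normalized intensities, taken to the log2 scale, was used as an alternative. Control spots and the 0.316% of spots flagged as outliers were dropped and spots of a probe averaged. Probes are named by the files' gene names, some of them old, with mm9 positions. The log2 processed signals of all 32 channels were quantile-normalized, the method the study names, and fitted to 8 groups with limma 3.58.1 in R 4.3.3 (lmFit, eBayes), with Benjamini-Hochberg adjustment over 55681 probes. A probe was called at an adjusted p under 0.05 and at least 2-fold, and markers and list genes were read from their brightest probe. Single markers were also given an exact permutation test. The procedure was tested on simulated data. The number of samples limits the precision.

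The members and the 29 gene lists were chosen with earlier results of these data known. Genes named are the 4 markers, per list up to 4 called members in each direction and the defining members of both cell types, and the 12 largest differences in each direction among called, gene-named probes that the higher group detected in all 4 samples and whose groups were apart, each read from its probe of largest difference; other list members are given by their values as examples. Ito and Kupffer samples with the same number deviated together from their group means (r = 0.11, 0.19, 0.22 and 0.68 for replicates 1 to 4; replicates 1 and 2 correlated best with number 3), which rests mainly on replicate 4. Alternatives varied the background correction, normalization, source of values, filter, samples in the fit, blocks, test, threshold, probe and replicates.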

Additional observations from a re-analysis of the deposited data

Results flagged for a closer look

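In a group of 4 samples, a value was singled out where its gap to the nearest other value, divided by the group's range, exceeded the critical value of Dixon's test. Of 104 groups examined, 28 were singled out, where chance gives about 1 in 20. The library labelled IC replicate 4 accounts for 22 of them. It was the high value among Ito samples for Clec4f (15.92), Alb (17.48), Adora3 (8.27), Saa2 (14.77), Sult1e1 (10.12), Timd4 (10.96), Rgs5 (12.64), Ifitm1 (13.69), Ccl12 (13.90), Il10 (9.93), C1qb (14.12), Fcgr4 (14.003), Pycard (11.75), Nod2 (9.59), Acvrl1 (12.85) and Hba-a1 (15.86). It was the low value for Lce1d (4.73), Reln (4.54), Ctgf (8.28), Hspa1a (11.27), Cxcl2 (13.18) and Rspo3 (11.72). Among Kupffer samples, replicate 3 was low for Rgs5 (8.001) and for the share of spots well above background (44.6%) and high for Hspb1 (13.63). KC replicate 4 was low for Ctgf (13.38) and for the brighter Krt8 probe (6.04) and high for Fcgr4 (15.42). The cause of these departures was not tested.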

How the results depend on the processing

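The counts of 2591 higher and 2250 lower probes moved by more than 1.5 times with the threshold and the test. They did so too with the normexp settings and, for the lower count, when the 8 channels were fitted alone. The counts were 1526 and 1212 with normexp background correction, an offset of 50 and quantile normalization, and 1502 and 1247 with normexp, loess and Aquantile. Both settings changed more than the background correction. The lower count was 1491 when the 8 channels were fitted alone and 1464 when they were also quantile-normalized alone. The methods' t-test of equal variance, adjusted over all probes, gave 1399 and 1076; a threshold of adjusted p under 0.001 and 4-fold gave 328 and 202, and no minimum fold gave 4023 and 4287. Leaving out samples gave 1981 to 3118 higher and 1506 to 2816 lower probes. Scaling to the 75th percentile shifted the median of all probes by -0.19 on the log2 scale, and gave 2399 higher and 2724 lower probes. The replicate block gave 2575 and 2267; under it Irf7, Nr4a1, Hba-a1 and Beta-s lost their calls, 2 erythroid genes were lower in place of 4, and no other gene of those tested changed its call. Cd5l, never called, ranged over the leave-outs from -0.071 without KC replicate 4 (adjusted p = 0.994 by limma), the one change of sign, to 1.36 without IC replicate 4. Of 122 genes run over up to 28 settings, 32 kept direction and call, or lack of a call, in each. The 122 were the 4 markers and named genes already called, so only the uncalled markers could gain a call. The setting with no minimum fold could not lose a call. Clec4f and Lrat, never called, are among the 32. Of 3408 comparisons with the reported value, 2850 were unchanged in direction and call and 557 lost the call. TME counts were rerun only with the deposited value table, without replicate 4 of both TME groups and without replicate 4 of all liver groups, and lay between 2429 and 2838 higher and between 1872 and 1997 lower. Signal near background limits Lrat, Cd163 and the genes that one group did not detect, and the slide cannot be separated from the cell type.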

Other observations

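Genes of the actin cytoskeleton were also called in both directions. Of 20 contractile and cytoskeletal genes, Cnn2 (calponin 2), the actin crosslinker Actn1 and filamin A (Flna) were higher in Kupffer cells, at 2.17 ± 0.28 (SE, adjusted p = 7.27e-06), 1.07 ± 0.28 (SE, adjusted p = 0.00952) and 1.35 ± 0.29 (SE, adjusted p = 0.00156) on the log2 scale, and all 3 were also called without replicate 4 (limma). Tropomyosin 1 (Tpm1) and myosin light chain kinase (Mylk), parts of the contractile apparatus of smooth muscle and stellate cells, were lower, at -1.19 ± 0.18 (SE, adjusted p = 5.18e-05) and -1.28 ± 0.35 (SE, adjusted p = 0.012), and both were called without replicate 4. The probes did not all follow: a second, dimmer Mylk probe, above background on all 8 arrays, had the opposite sign at 1.02 ± 0.36 (SE, adjusted p = 0.0584), and the dimmest of 5 Tpm1 probes gave -0.25 ± 0.14 (SE, adjusted p = 0.296), neither of them called.

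Among 22 proteases and inhibitors of matrix, Adamts13, the protease of von Willebrand factor that stellate cells are known to make, was lower in Kupffer cells (-1.30 ± 0.36 SE, adjusted p = 0.0125), as was Serpinf1 (PEDF), an inhibitor of angiogenesis (-1.73 ± 0.57 SE, adjusted p = 0.0384). Without replicate 4, Adamts13 was called again and Serpinf1 was -1.59 (adjusted p = 0.131).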
